A study of Mus musculus with 4 samples.

Results

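Osteoclast coupling genes were taken as 8 genes through which stromal cells and osteoclasts act on each other: the ligand genes Tnfsf11, Csf1 and Il34, the decoy receptor gene Tnfrsf11b, the receptor genes Tnfrsf11a and Csf1r, and the enzyme genes Ctsk and Acp5. They were chosen by name. A listed region belonged to one of them where its midpoint lay nearest to a transcription start site (TSS) of that gene. Nearness was judged among all protein-coding genes. A region also belonged to a gene where it overlapped 1 kb either side of such a TSS. This gave 69 of 121574 regions. Of these, 52 belonged to the stromal side (the 3 ligands and the decoy receptor) and 17 to the osteoclast side (the 2 receptors and 2 enzymes). A listed region need not be open in this library: 7101 of all regions had 0 reads, 5 of them among the 69. Some regions abut, so counts of regions are not counts of separate open sites. ATAC-seq, which maps accessible DNA through the cuts of a transposase, was applied to incisor dental mesenchyme of wild-type C57BL/6 mice at 4 weeks of age, with no treatment. The 4 samples are lanes of 1 library and share 1 value column, so there is no contrast between conditions, no replicate error and no test. The sources used here do not say whether cells of several teeth or animals were pooled. The library held 2297894 reads in regions, with a median of 7 reads a region (quartiles 3 and 16), and the regions of the 8 genes held 790. Intervals are exact 95% Poisson intervals of a count, or intervals of a ratio of counts from the exact binomial, and cover counting error alone.

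Osteoclasts are multinucleated cells of the monocyte lineage that resorb bone and, around teeth, clear the path of eruption. Stromal and osteoblast-lineage cells control them from outside. Csf1 (M-CSF) and Il34 bind the receptor encoded by Csf1r and keep osteoclast precursors alive, Tnfsf11 (RANKL) binds the receptor RANK, encoded by Tnfrsf11a, and drives their differentiation, and the secreted protein osteoprotegerin, encoded by Tnfrsf11b, captures RANKL before it reaches RANK. Ctsk encodes cathepsin K, the protease that degrades bone collagen, and Acp5 encodes tartrate-resistant acid phosphatase, the enzyme by which osteoclasts are commonly stained.

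The sequences below are those on which the layout of Tnfsf11 and Csf1 turns: a promoter with few reads and a distal region with many for Tnfsf11, a sparsely read region on its upstream side, and an open promoter and upstream region for Csf1. A receptor and an enzyme promoter stand beside them. Promoters run from 250 bases before to 50 after the start (RefSeq, GRCm38.p6; 5 of 8 members matched; Il34, Tnfrsf11b and Csf1r did not), and distal sequences are the central 300 bases of a region, or all of it where it is shorter (GRCm38). Each is written 5′ to 3′ on the strand of its gene. Capitals mark exact matches, on either strand, to 1 of 8 motifs. The TATA box of core promoters was searched as TATAAA. The GC box, bound by Sp and Klf factors, was searched as GGGCGG. The AP-1 motif of Fos and Jun dimers was searched as TGANTCA. The cyclic AMP response element (CRE) of Creb and Atf factors was searched as TGACGTCA. The RUNX motif of Runx factors was searched as TGTGGTT. The PU.1 motif of the macrophage factor Spi1 was searched as GAGGAAGT. The E-box of Mitf and Tfe factors was searched as TCACGTGA. The NF-kappaB motif was GGGA followed after 3 free bases by TCC. These motifs may overlap, and no base is shared between matches of different motifs here.
Tnfsf11 promoter, chr14:78307994-78308293, minus strand: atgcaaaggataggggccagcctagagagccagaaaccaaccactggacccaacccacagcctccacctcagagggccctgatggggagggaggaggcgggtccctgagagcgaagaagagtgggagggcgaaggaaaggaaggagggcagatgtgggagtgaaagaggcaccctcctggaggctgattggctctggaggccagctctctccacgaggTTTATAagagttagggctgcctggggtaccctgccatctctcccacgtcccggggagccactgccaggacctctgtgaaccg
Tnfsf11 region 53.8 kb downstream of the TSS, chr14:78254135-78254434, minus strand: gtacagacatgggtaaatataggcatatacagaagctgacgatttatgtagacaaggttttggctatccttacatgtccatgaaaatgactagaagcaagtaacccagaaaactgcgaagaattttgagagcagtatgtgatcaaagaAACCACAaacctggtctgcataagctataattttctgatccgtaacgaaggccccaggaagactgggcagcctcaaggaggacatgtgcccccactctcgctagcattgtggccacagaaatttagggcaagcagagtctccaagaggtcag
Tnfsf11 region 75.4 kb upstream of the TSS, chr14:78383377-78383605, minus strand: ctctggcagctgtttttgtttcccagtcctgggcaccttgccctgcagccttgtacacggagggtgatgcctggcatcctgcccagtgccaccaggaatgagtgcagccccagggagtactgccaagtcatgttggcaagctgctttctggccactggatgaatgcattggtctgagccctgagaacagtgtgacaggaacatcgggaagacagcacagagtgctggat
Csf1 promoter, chr3:107760420-107760719, minus strand: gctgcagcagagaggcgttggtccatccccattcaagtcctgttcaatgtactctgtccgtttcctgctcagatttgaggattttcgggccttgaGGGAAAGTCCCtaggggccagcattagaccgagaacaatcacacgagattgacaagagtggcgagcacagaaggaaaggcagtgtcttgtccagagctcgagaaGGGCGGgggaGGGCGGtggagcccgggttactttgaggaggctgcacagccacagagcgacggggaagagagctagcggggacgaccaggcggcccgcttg
Csf1 region 33.1 kb upstream of the TSS, chr3:107793409-107793708, minus strand: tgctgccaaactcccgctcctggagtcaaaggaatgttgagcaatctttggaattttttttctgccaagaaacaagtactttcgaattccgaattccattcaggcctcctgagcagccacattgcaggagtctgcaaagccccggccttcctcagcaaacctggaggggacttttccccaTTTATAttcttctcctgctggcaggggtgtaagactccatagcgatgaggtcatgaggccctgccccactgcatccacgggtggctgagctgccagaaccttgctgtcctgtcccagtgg
Tnfrsf11a promoter, chr1:105780473-105780772, plus strand: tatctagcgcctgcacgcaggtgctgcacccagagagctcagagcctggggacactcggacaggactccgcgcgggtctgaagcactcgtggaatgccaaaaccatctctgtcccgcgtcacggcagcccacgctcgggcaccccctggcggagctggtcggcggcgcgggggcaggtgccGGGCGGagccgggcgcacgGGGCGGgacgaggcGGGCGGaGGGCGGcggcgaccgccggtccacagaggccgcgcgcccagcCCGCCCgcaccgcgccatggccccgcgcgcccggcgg
Ctsk promoter, chr3:95498960-95499259, plus strand: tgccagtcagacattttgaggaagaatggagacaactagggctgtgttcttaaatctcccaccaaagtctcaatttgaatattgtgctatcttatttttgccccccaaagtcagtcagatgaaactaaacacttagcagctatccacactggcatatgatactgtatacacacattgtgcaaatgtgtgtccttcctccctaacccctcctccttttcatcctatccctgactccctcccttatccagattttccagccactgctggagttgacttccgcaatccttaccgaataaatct

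Most reads of the 8 genes lay on the stromal side. Csf1 had 293 reads in its regions, Tnfrsf11b 227, Tnfsf11 152 and Il34 18. On the osteoclast side Tnfrsf11a had 81, Csf1r 12 and Ctsk 7, and no region was listed for Acp5. A region was nearest to 7 of the 8 genes, against 76.8% of all 21938 protein-coding genes, and 4 of the 8 exceeded the median gene (52 reads), against 49.6% of all. As a set the 8 genes were therefore close to the background, and the spread lay within the set.

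**Figure D1:**
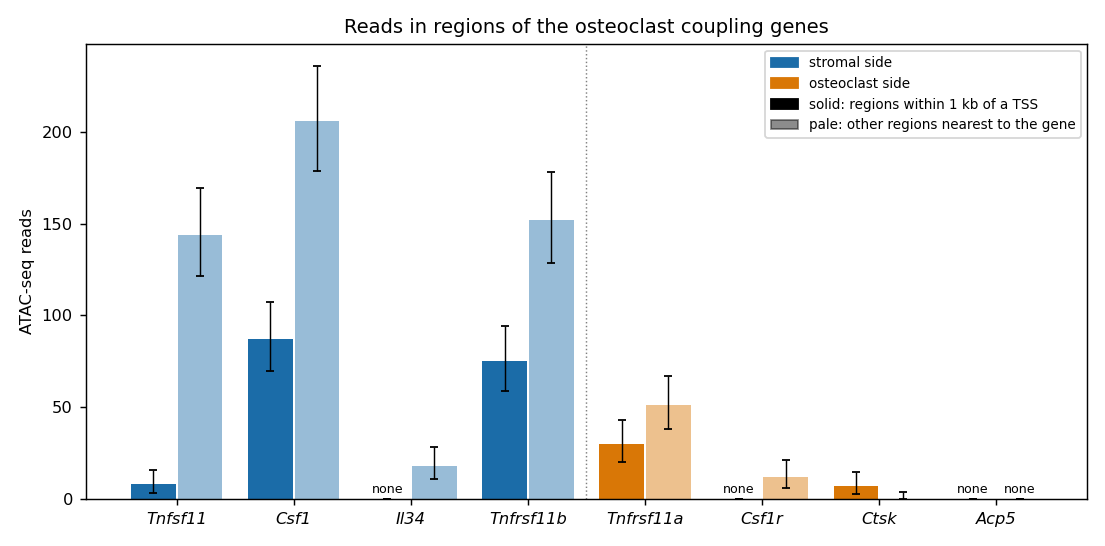
ATAC-seq reads (y axis) of each gene, with regions within 1 kb of a TSS as solid bars and its other regions as pale bars; whiskers are exact 95% Poisson intervals, and "none" marks genes without a listed region of that kind. Csf1, Tnfrsf11b and Tnfsf11 on the stromal side had 206, 152 and 144 reads away from the promoter, against 51, 12 and 0 for Tnfrsf11a, Csf1r and Ctsk.

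Tnfsf11 is the gene of the ligand that drives osteoclast formation. By nearest protein-coding start, almost all of its reads lay away from its own start. The gene (ENSMUSG00000022015.8, chromosome 14 from 78277445 to 78308043, minus strand; mm10 throughout) held 152 reads (128.8 to 178), spread over 18 regions. Its promoter regions had 7 reads (2.81 to 14.4) and 1 read (0.0253 to 5.57), so that 5.26% of the gene's reads lay at the promoter. With each region given to the nearest start of any gene type, the gene held 31 reads in all, beside 8 promoter reads. Promoter reads exceeded those of 39.5% of protein-coding genes, whereas all its reads exceeded those of 76.9%. A single intergenic region from 78253809 to 78254759, 53.8 kb downstream of the TSS and 22.7 kb past the end of the gene, had 74 reads (58.1 to 92.9), or 48.7% of the total; over the 16728 genes with reads the largest region held a median of 69.6%. It had more reads than 98.7% of the 96523 regions away from promoters, whose median was 6. The nearest protein-coding starts are those of Fam216b, 219.0 kb beyond the Tnfsf11 TSS on that side, and Akap11, 214.6 kb on the other; counted over all gene types, the start nearest to this region is that of the miRNA gene Gm23652, 8.0 kb away.

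The next regions of Tnfsf11 were an intron 2 region of 13 reads (6.92 to 22.2), 19.7 kb into the gene, and one of 11 reads (5.49 to 19.7), 103.7 kb downstream. Enhancers far upstream of Tnfsf11 are known from mouse stromal cells to mediate its response to parathyroid hormone and vitamin D. Upstream of the TSS, 4 regions with 14 reads were listed. Of these, 1 region lay 23.0 kb upstream with 6 reads (2.20 to 13.1), and 3 abutting regions 75.3 to 75.6 kb upstream had 1, 6 and 1 reads. The upstream regions were thus at or below the median region, and whether they coincide with the known enhancers was not tested.

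Csf1 combined an open promoter with a series of upstream regions. The gene (ENSMUSG00000014599.10, chromosome 3 from 107741048 to 107760469, minus strand) held 293 reads (260.4 to 329) in 14 regions and so exceeded 91.3% of protein-coding genes. At the promoter, 81 reads (64.3 to 100.7) fell between 107759986 and 107760695, and a second annotated start inside the gene had a region of 6 reads (2.20 to 13.1). Upstream of the TSSs, 6 regions held 153 reads. The largest, intergenic from 107793142 to 107793974 and 33.1 kb upstream, had 71 reads (55.5 to 89.6), more than 98.5% of regions away from promoters. Another, 9.4 kb upstream from 107769668 to 107770010, had 40 (28.6 to 54.5). Near the 3′ end a region just outside the gene, from 107740675 to 107740926, had 23 (14.6 to 34.5).

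Il34, the gene of the other ligand of the Csf1 receptor, had few reads. The gene (ENSMUSG00000031750.15, chromosome 8 from 110741840 to 110805903, minus strand) held 18 reads (10.7 to 28.4) in 3 regions, and no region was listed within 1 kb of its TSSs. Of these reads, 11 (5.49 to 19.7) and 6 (2.20 to 13.1) were in intron 1, and 1 was 2.9 kb upstream. Inside the gene body lay 5 regions with 39 reads in all, of which 2 with 17 reads were nearest to its own TSS. Csf1 had 16.3 times the reads of Il34 (10.1 to 27.9), and 10.3 times per 100 kb of sequence nearest to the TSSs (6.43 to 17.7). These values depend on the starts assigned to Il34: with the comprehensive GENCODE annotation, tried after the data were seen, which gives it 5 starts in place of 2, Il34 had 40 reads and the ratio was 7.32 (5.25 to 10.5), and with the starts of all gene types Csf1 had 180 reads and Il34 had 1.

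Tnfrsf11b, the gene of the decoy that blocks RANKL, resembled Csf1 in having an open promoter. The gene (ENSMUSG00000063727.3, chromosome 15 from 54250619 to 54278484, minus strand) held 227 reads (198 to 259) in 17 regions and so exceeded 86.6% of protein-coding genes. At its promoter, 75 reads (59.0 to 94) fell between 54278136 and 54279238. A distal region from 54120489 to 54120960, 157.8 kb downstream of the TSS and 129.7 kb past the gene's end, had 57 (43.2 to 73.9), more than 97.6% of regions away from promoters. The next largest, at 155.1, 110.7 and 98.6 kb downstream, had 12 reads each (6.20 to 21.0). The next protein-coding start on that side, Samd12, lies 376.0 kb from the Tnfrsf11b TSS, and a nearest start need not name the gene that a region acts on.

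RANKL and its decoy are often read as a pair. Tnfsf11 had 8 promoter reads against 75 at Tnfrsf11b, a ratio of 0.11 (0.044 to 0.22). Over all regions the reads were 152 against 227, a ratio of 0.67 (0.54 to 0.83). Per 100 kb of sequence nearest to the TSSs, which spanned 217 kb for Tnfsf11 and 254 kb for Tnfrsf11b, the ratio was 0.78 (0.63 to 0.97). The ratio was thus lower at the promoters than over all regions, and the intervals of the 2 did not overlap. The order over all regions turned with regions over 100 kb from a TSS left out, where the reads were 141 against 126, a ratio of 1.12 (0.87 to 1.43) whose interval spans equality. With each region given to the nearest start of any gene type, the region 53.8 kb downstream left Tnfsf11, the reads were 31 against 138 and the ratio of 0.22 (0.15 to 0.33) overlapped that at the promoters.

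**Figure D2:**
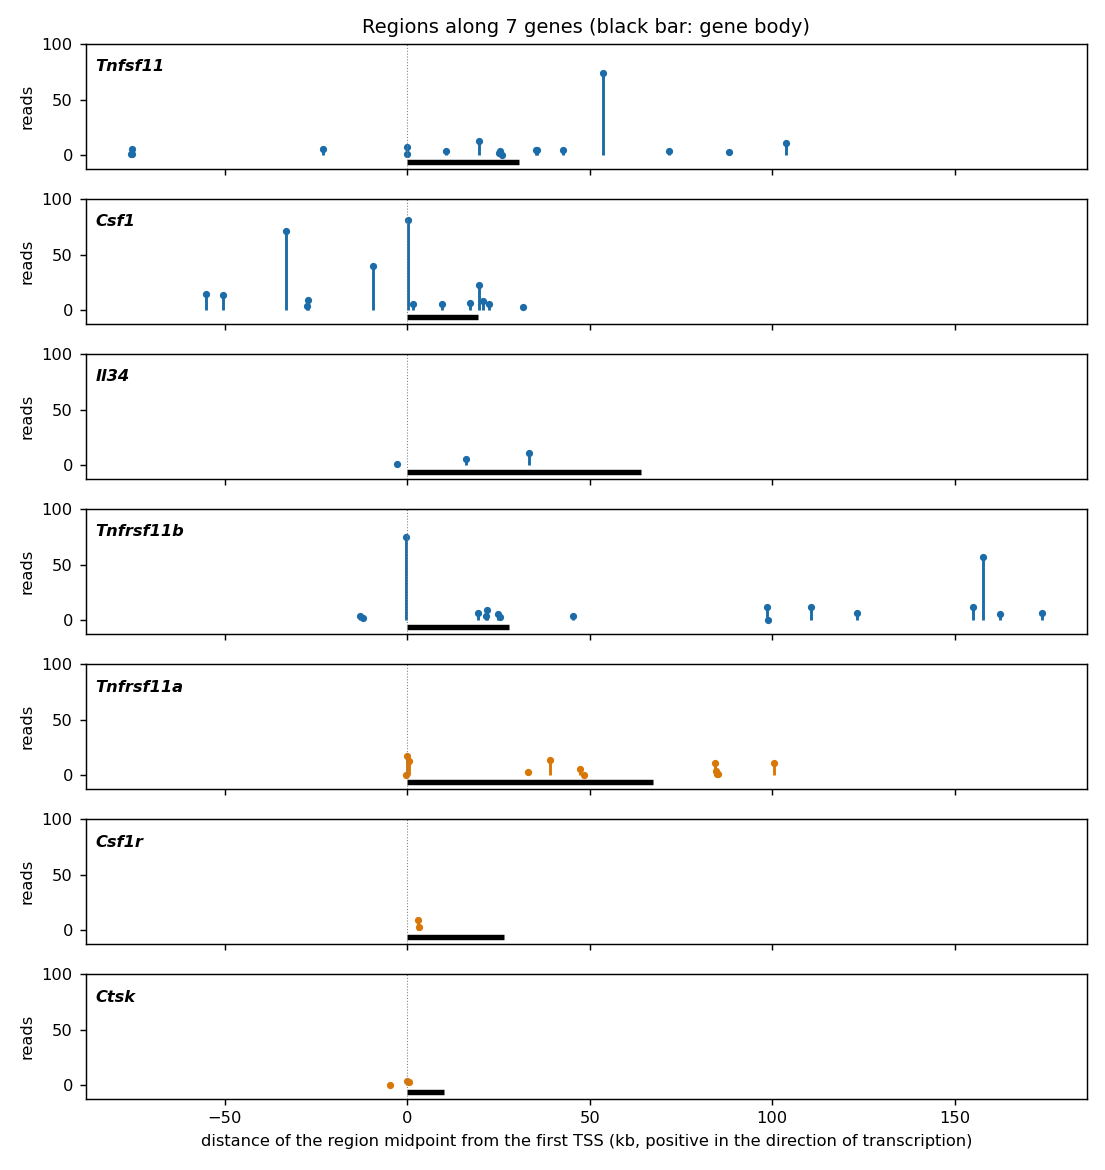
Reads (y axis) of each listed region against the distance of its midpoint from the first TSS of the gene in kb, positive in the direction of transcription, for the 7 genes with a region; stromal-side genes are blue, osteoclast-side genes orange, and black bars are gene bodies. Regions of 50 or more reads away from promoters stood at Tnfsf11 (74), Csf1 (71) and Tnfrsf11b (57), and the highest on the osteoclast side had 14.

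On the osteoclast side, Tnfrsf11a was the gene with most reads. The RANK gene (ENSMUSG00000026321.7, chromosome 1 from 105780718 to 105847981, plus strand) held 81 reads (64.3 to 100.7) in 12 regions and so exceeded 60.3% of protein-coding genes. Its 3 abutting promoter regions had 0, 17 (9.90 to 27.2) and 13 (6.92 to 22.2) reads, 37.0% of the total. The largest single listed region elsewhere, in intron 5 and 39.1 kb into the gene, had 14 (7.65 to 23.5). Regions 84.3 and 100.5 kb downstream had 11 each (5.49 to 19.7). The region at 84.3 kb was followed without a gap by regions of 4, 1 and 1 reads. Its ligand gene Tnfsf11 had 8 promoter reads against its 30 (20.2 to 42.8), a ratio of 0.27 (0.11 to 0.60), but 152 reads in all against 81, a ratio of 1.88 (1.42 to 2.49), and 1.41 (1.07 to 1.87) per 100 kb. The order of this ligand and its receptor therefore differed between the promoter and the whole surroundings of the genes. That difference was absent with the nearest start of any gene type, where Tnfsf11 had 31 reads in all against 53 at Tnfrsf11a, a ratio of 0.58 (0.36 to 0.93). With the largest promoter region of each gene alone, the promoter reads were 7 against 17. The order was the same, but the ratio of 0.41 (0.14 to 1.04) had an interval that spans equality.

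Csf1r, the receptor gene of the macrophage and osteoclast lineage (ENSMUSG00000024621.16, chromosome 18 from 61105572 to 61132149, plus strand), had 12 reads (6.20 to 21.0) in 2 abutting regions and no listed region within 1 kb of its TSSs. Both lay in intron 1 of 20, from 61108455 to 61108693 with 9 reads (4.12 to 17.1) and from 61108694 to 61108920 with 3 (0.619 to 8.77). A macrophage enhancer is known in an intron near the start of this gene, and overlap with it was not tested. Csf1 had 293 reads against these 12, a ratio of 24.4 (13.8 to 47.8), and 17.0 (9.56 to 33.2) per 100 kb. Il34 had 18 against 12, a ratio of 1.50 (0.68 to 3.41), an interval that spans equality. With the comprehensive annotation Il34 had 40 against 13, a ratio of 3.08 (1.61 to 6.27), so that whether the second ligand stood above the receptor depended on the annotation.

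Of the 7 genes with a listed region, the enzyme gene Ctsk had the fewest reads. Ctsk (ENSMUSG00000028111.4, chromosome 3 from 95499256 to 95509362, plus strand) had 7 reads (2.81 to 14.4), of which 4 (1.09 to 10.2) were at its TSS and 3 (0.619 to 8.77) in intron 1; a further region, in a coding exon of the neighbour Arnt, had 0. Acp5 (ENSMUSG00000001348.15, chromosome 9 from 22126727 to 22135711, minus strand) had no listed region in the gene or within 5 kb of it. No region at all was listed from 22096327 to 22225533, a stretch of 129.2 kb with starts of 5 genes. Of these, Elof1, Pigyl and Zfp872 also had no region, although their promoters were rich in CpG (observed/expected 0.77, 0.81 and 0.64). The lack of a listed region at Acp5 is thus shared with its neighbours. Whether the stretch held no accessible region or is missing from the list could not be told apart, and Acp5 is entered as 0 reads in the means and medians that include it.

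Set against each other, the ligand genes had more reads than the receptor genes, and 1 gene carried much of this. The 3 ligand genes averaged 154 reads and the 2 receptor genes 46.5, a log2 ratio of 1.73 (1.41 to 2.07). In promoter reads the means were 31.7 and 15.0, a log2 ratio of 1.08 (0.47 to 1.72). Of the 95 promoter reads of the ligand genes, 87 were at Csf1, and without Csf1 the log2 ratio of promoter reads was -1.91. The median ligand gene had 8 promoter reads and the median of the receptor genes was 15. With the decoy and the enzymes added, the stromal side averaged 172.5 reads a gene and the osteoclast side 25.0, a log2 ratio of 2.79 (2.48 to 3.10), and promoter reads averaged 42.5 and 9.25, a log2 ratio of 2.20 (1.68 to 2.75). Without Acp5, whose surroundings hold no region, these were 2.37 and 1.78.

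Lengths entered these values. Sequence nearest to the TSSs spanned 217, 95.1, 60.5 and 254 kb for Tnfsf11, Csf1, Il34 and Tnfrsf11b, and 163, 66.0, 46.2 and 22.4 kb for Tnfrsf11a, Csf1r, Ctsk and Acp5. Per 100 kb of it Csf1 had 308 reads, Tnfrsf11b 89.3, Tnfsf11 70.1 and Il34 29.8, and Tnfrsf11a had 49.6, Csf1r 18.2 and Ctsk 15.2. Per kb of region the order was Csf1 61.2, Tnfrsf11b 39.9, Tnfsf11 30.2 and Il34 14, and Csf1r 25.8, Tnfrsf11a 19.6 and Ctsk 11.1. Csf1 led on all 3 scales, and Il34 stood below Tnfrsf11a on all 3. Away from promoters, the stromal side had 47 regions, 3 of them with 50 or more reads, and the osteoclast side had 12 regions, none of which had; 3.10% of all regions away from promoters had 50 or more.

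CpG content of the promoters went part of the way with their reads. Its observed/expected ratio, over 500 bp either side of the TSS with the highest ratio, was 0.69 at Csf1, 0.56 at Tnfsf11, 0.39 at Tnfrsf11b and 0.31 at Il34, and 0.76 at Tnfrsf11a, 0.51 at Acp5, 0.29 at Ctsk and 0.20 at Csf1r. A promoter region was listed for 5 of the 8 genes, against 64.6% of all genes, 25.0% of genes under a ratio of 0.5 and 93.3% of the rest. Promoters with 10 or more reads numbered 3 of 8, at Csf1, Tnfrsf11b and Tnfrsf11a, against 59.4% of all genes. Acp5, without a promoter region, had a ratio of 0.51 and lay in the stretch where no region was listed. Il34 and Csf1r, also without one, were both under 0.5. Tnfrsf11b was under 0.5 as well, and its 75 promoter reads exceeded those of 96.9% of the genes in that class, whose median was 0. In the same class the 7 promoter reads of Ctsk exceeded those of 80.1%. Among genes at 0.5 or more, the promoter reads of Csf1 exceeded those of 56.7% and the promoter reads of Tnfrsf11a those of 22.9%. Tnfsf11 had 8 promoter reads, more than 9.73% of the genes at 0.5 or more, a class whose median was 73 (quartiles 33 and 133). Its ratio of 0.56 lay near the lower limit of that class and above that of 46.1% of all genes. In its printed promoter window the ratio was 0.25. Whether its reads were low for its CpG content was not tested.

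**Figure D3:**
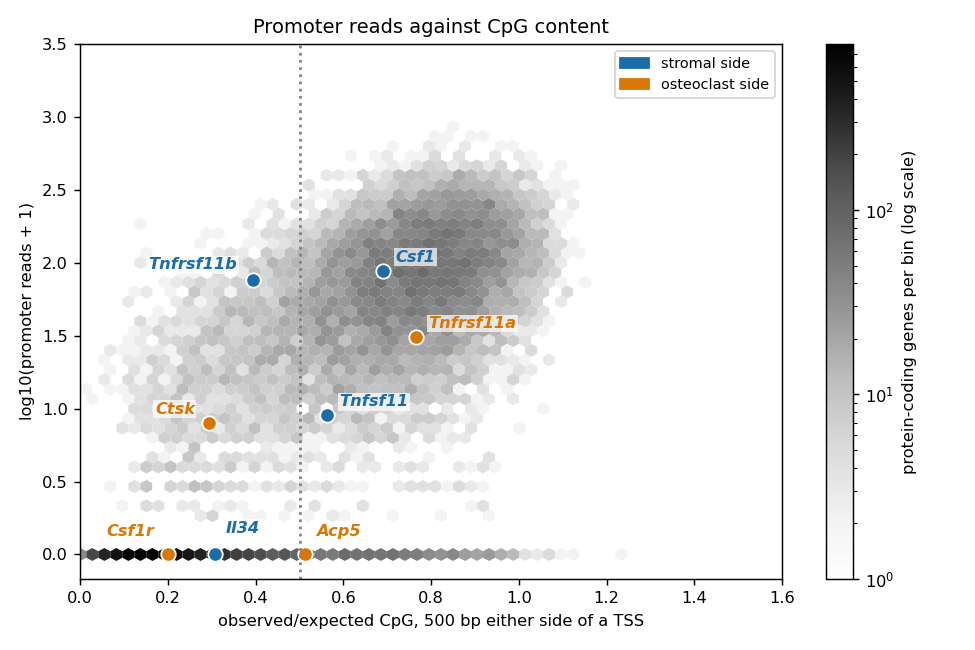
Promoter reads of protein-coding genes as log10(reads + 1) against the observed/expected CpG ratio around the TSS, with all genes as grey bins and the 8 genes as points; the dotted line marks a ratio of 0.5. Tnfrsf11b (75 reads) stands high for its CpG ratio of 0.39. Tnfsf11 (8 reads) lies below the median of genes at 0.5 or more (73), with a ratio of 0.56 near that limit.

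The promoter letters differed in the same way. Of the printed windows, the Tnfrsf11a promoter had 43 CpG pairs and 5 GC-box matches, and the Csf1 promoter 16 CpG pairs, 2 GC-box matches and a pair of overlapping NF-kappaB matches, 1 on each strand, that span GGGAAAGTCCC. The Tnfsf11 promoter had 7 CpG pairs and 1 TATA-box match, which lies on the strand opposite to the gene (TTTATA as printed) and begins 32 bases before the start. Overlapping this match, the strand of the gene reads TATAAG, which differs from TATAAA in its last base and so was not marked. The Ctsk promoter had 2 CpG pairs and no match to any of the 8 motifs. Among 32851 RefSeq promoters, 35.7% held the GC box, 13.6% the TATA box, 4.59% the NF-kappaB motif, 7.81% AP-1, 5.27% RUNX, 3.20% PU.1, 1.79% CRE and 0.974% the MITF E-box. The region downstream of Tnfsf11 held 1 RUNX match (AACCACA as printed), as did 9.95% of 97131 windows of 300 bases at regions over 1 kb from a protein-coding TSS. The region upstream of Csf1 held 1 TATA-box match, as did 12.8% of them, and the region upstream of Tnfsf11 held none of the 8. In those windows AP-1 was in 11%, the GC box in 9.60%, NF-kappaB in 3.71%, PU.1 in 2.47%, CRE in 0.316% and the MITF E-box in 0.224%. A match is a run of letters and not a bound site.

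Other genes of the 2 sides were counted from lists set up beside the members. Of 24 stromal genes known to act on osteoclasts, 24 had a promoter region (64.6% of all genes), 21 had 10 or more promoter reads (59.4% of all) and 21 exceeded the median gene (49.6% of all), with a median of 172.5 reads. Among them Efnb2, an ephrin ligand, had 1378 reads (1306 to 1453), 275 of them at its promoter, over a span of 1793 kb. The chemokine gene Cxcl12 had 540 (495 to 588) and Lifr, a cytokine receptor gene, had 243 promoter reads (213 to 276), whereas the cytokine gene Il6 had 6 (2.20 to 13.1). Of 21 other osteoclast lineage genes, 12 had a promoter region (57.1%), 11 had 10 or more promoter reads (52.4%) and 9 exceeded the median gene (42.9%), each near the share over all genes, with a median of 37 reads. Fos had 478 reads (436 to 523) and Nfatc1, the factor that commits precursors to the osteoclast fate, 375 (338 to 415), 121 of them at its promoter. The carbonic anhydrase gene Car2 had 136 promoter reads (114 to 161). These 3 genes are also used by other cell types. No region was listed for Calcr, the calcitonin receptor gene, or for Trem2.

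Markers of the macrophage lineage were counted beside the osteoclast-side genes. Of 16 macrophage and leukocyte genes, 3 had a promoter region (64.6% of all genes). Cd14, with 51, was the 1 gene with 10 or more promoter reads (59.4% of all). The median gene was exceeded by 3 of the 16 (18.8%, against 49.6% of all). The median of the 16 was 9 reads, and no region was listed for Cd68, Itgam, Fcgr1, C1qa, C1qb and C1qc. All 16 were under a CpG ratio of 0.5, a class in which 25.0% of genes had a promoter region, against 18.8% of these markers, and so their promoter count was near that background. Also under 0.5 were 11 of the 21 osteoclast lineage genes and 8 of the 24 stromal genes. Ptprc had 591 reads over a span of 657 kb, with no region at its promoter, and Laptm5 had 106. In a bulk library fewer cells of a type and less accessible chromatin per cell cannot be told apart, and the part of cell number in the counts of Csf1r, Tnfrsf11a, Ctsk and Acp5 was not tested. Dental mesenchyme genes had a promoter region at 13 of 14 (64.6% of all genes) and exceeded the median gene at 14 of 14 (49.6% of all). Their median was 400 reads, and Msx2 had 1061, Col1a2 565 and Barx1 69. This list was chosen with earlier results of these data known, so its counts are no check on the labelled tissue. Endothelial genes exceeded the median gene at 6 of 8 (75%, against 49.6% of all), and so did dental epithelium genes. Cdh5 had 1032 reads over a span of 692 kb, with 13 promoter reads, and Flt1 had 278 and Tie1 16. Trp63 had 247 over 469 kb, with 0 promoter reads, and Amelx had 8. Such totals over wide spans do not show accessibility at the promoter.

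**Figure D4:**
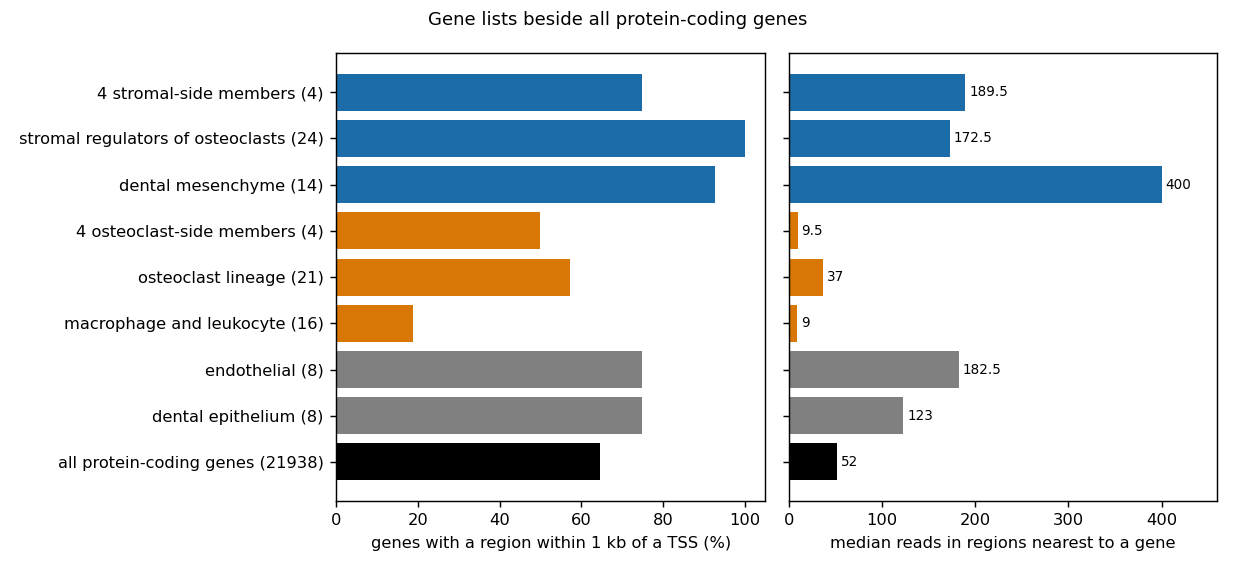
Share of genes with a region within 1 kb of a TSS (left, percent) and median reads in regions nearest to a gene (right) for the members and the other lists, with gene numbers in brackets and all protein-coding genes in black; blue marks stromal, orange osteoclast and macrophage, and grey other lists. The stromal-side members (median 189.5 reads) stand near the other stromal genes (172.5) in reads, whereas their share with a promoter region is 75% against 100%. The osteoclast-side members (9.5 with Acp5 as 0, 12 without it) stand below the osteoclast lineage list (37) and near the macrophage list (9) in reads. Their share with a promoter region (50%) is near that of the osteoclast lineage list (57.1%).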

How the data were processed

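Per the labels' protocols, BWA-MEM aligned the reads to mm10 and MACS2 called peaks; STAR 2.6.1d and Partek are named in the submitters' processing notes with no role. Duplicate removal and transposase shift are not given in the sources used here. The authors deposited CPM values per region with 1 read added. Values were whole multiples of 0.0484 in 99.9% of regions to within 0.01 read, with 84 exceptions; subtracting 1 from the multiple gave the reads. The divisor is 20662737, of which reads in regions were 11.1%. A further value column had no sample and was not used (1 column), nor was a table of other chromosomes.

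TSSs are those of GENCODE vM21 basic transcripts of protein-coding genes. Percentiles are the share of genes with fewer reads, and genes without a region count as 0. All 8 members were named; of each list, the 2 genes with most reads and the 1 with fewest, with ties; 1 gene that this rule takes is not reported here. Members, lists, motifs and ratios of pairs were chosen with earlier results of these data known. No test was run. Assignment, read recovery and intervals were tested on simulated data. Alternatives varied the promoter window, low-read filter, annotation, length scaling and members. Python 3.11.15, pandas 2.3.3 and SciPy 1.17.1 were used.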

Additional observations from a re-analysis of the deposited data

How the results depend on the processing

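No paired analysis was possible because the 4 lanes share 1 column, and for the same reason no lane could be left out. Values are log2 ratios of mean reads per gene. Ligand genes against receptor genes in promoter reads (1.08) reversed with the median over genes (-0.91) and without Csf1 (-1.91), and moved out of the counting interval per kb of region (1.83), with the largest region (1.79) and without Csf1r (0.078); without Tnfrsf11a no promoter region was left on the receptor side and no value was given. In all reads (1.73) they moved with the nearest TSS of any gene (1.12), per kb of region (0.63), with the largest region (2.09), without Csf1 (0.87), Il34 (2.26), Csf1r (0.93) and Tnfrsf11a (3.68). The stromal side against the osteoclast side in promoter reads (2.20) moved with the largest region (2.96), with the median (3.57), without Csf1 (1.58) and without Tnfrsf11a (4.19). In all reads (2.79) it moved with the nearest TSS of any gene (2.28), per kb of region (1.37), with the median (4.32), without Csf1 (2.40), Il34 (3.16), Tnfrsf11a (4.77), Ctsk (2.48) and Acp5 (2.37). The other 35 values stayed within the interval; the comprehensive annotation, added after the data were seen, was among them (0.53, 1.44, 1.74 and 2.50). Of the percentiles of single genes, 87 stayed within the range of their counting interval and 33 did not, 28 of these for all reads; that of Tnfsf11 was 48.7 with the nearest TSS of any gene and 48.3 per 100 kb, against 76.9 as reported. The causes were not tested. At a median of 7 reads (2.81 to 14.4) single regions are poorly measured: 49 of the 69 member regions (71.0%) had under 10 reads, against 61.0% of all regions.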

Other observations

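Some facts of single loci belong to no comparison. Oscar, an osteoclast receptor gene, had 116 promoter reads (95.9 to 139) but 37 reads in regions nearest to its own TSS, so that part of its promoter reads lay in regions nearest to another gene; it was named after its values were seen. In the comprehensive annotation Tnfrsf11a has 3 starts in place of 1 and 44 promoter reads in place of 30, and Il34 has 5 in place of 2, 40 reads in place of 18 and still no promoter region.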
